A study of Homo sapiens with 2 samples.

Results

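Tetraspanins are small proteins that pass through the membrane several times and gather other proteins into patches called the tetraspanin web. The genes described here are the tetraspanin family together with the L6 family, which has the same membrane topology and is named TM4SF. Members were chosen by symbol alone: TSPAN or TM4SF followed by a number, or CD9, CD37, CD53, CD63, CD81, CD82, CD151, UPK1A, UPK1B, PRPH2 or ROM1. This rule took 39 of the 19607 genes in the expression table. The rule itself used no expression value, but members and subgroups were chosen with earlier results of these data known.

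RNA was sequenced from the human prostate cancer line CWR22rv1. The Akt1/2 DKO (double knockout) library came from cells in which CRISPR/Cas9 had been directed at AKT1 and AKT2, kinases of the PI3K pathway, and the control library came from cells labelled as wild type. The study describes its knockout cells as monoclonal, and the labels do not say which clone was sequenced. The comparison asks how the family differs between cells with and without both kinases, with 1 library on each side, so an effect of the knockout cannot be told apart from a difference between clones or cultures, and no difference has a replicate check.

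Tetraspanins have few ligands of their own and act mainly through the proteins they hold. CD151 binds laminin-binding integrins, CD9 and CD81 bind immunoglobulin superfamily proteins, and the TspanC8 subgroup escorts the protease ADAM10 to the cell surface. CD63 lives in late endosomes and, with CD9 and CD81, is a standard marker of exosomes. Several members have been studied in the invasion of carcinoma cells.

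Values are given on 2 scales. Reads are the authors' estimated counts rounded to whole numbers, and the libraries held 9970815 reads (control) and 10718634 reads (Akt1/2 DKO). Fold changes are ratios of reads after normalization for library size, Akt1/2 DKO over control, each with a 95% exact interval that covers counting error only. FPKM, which counts fragments per length of transcript and per size of the library, is used wherever the levels of different genes are compared. Where 2 values follow a gene without a label, the control comes first. A gene is counted as higher or lower when the ratio is at least 1.5-fold, the size the study used, and the gene has at least 10 reads in both libraries together.

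The targeted genes were lower in the Akt1/2 DKO library without being absent. AKT1 had 2645 reads in the control against 591 in Akt1/2 DKO, a log2 fold change of -2.31 (95% interval -2.44 to -2.18), and AKT2 had 2362 and 667 reads, -1.97 (-2.10 to -1.85). All 6 markers of prostate epithelium were detected in both libraries, KRT8 with 6408 and 12815 reads. Of these 6, 3 were higher and 2 lower by at least 1.5-fold, 83.3% beside 30.9% of all genes with at least 10 reads. Summed over each marker list of other cell types, control and Akt1/2 DKO had 55 and 79 reads for 5 leukocyte genes, 8 and 6 for 4 urothelial genes, 1 and 1 for 4 photoreceptor genes, and 138 and 153 for 5 fibroblast genes. The 3 fibroblast genes with enough reads all passed 1.5-fold, beside 30.9% of all genes. COL3A1 was lower (74 and 9 reads) and COL1A1 (55 and 106) and LUM (5 and 35) were higher. The defining leukocyte genes PTPRC, CD3E and MS4A1 had at most 1 read in either library, and most leukocyte-list reads were those of CD68, with 50 and 69. CD14 had 4 and 10, past 1.5-fold as higher, with an interval (log2 -0.62 to 3.30) that covers no change.

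Of the 39 members, 25 had at least 10 reads, 10 had fewer and 4 had none in either library. Among the 25, 9 were higher in the Akt1/2 DKO library, 6 were lower and 10 lay within 1.5-fold. The share past 1.5-fold was 60.0%, against 30.9% of the 13318 genes with as many reads (15.9% higher and 15.0% lower). Among the 17 members with at least 100 reads, 7 were higher and 3 lower, 58.8%, against 23.2% of 10956 such genes (11.3% higher and 11.9% lower). Since the choice of members and subgroups was made with earlier results known, these shares and those of the subgroups describe the listed genes only. The differences went both ways: the median log2 fold change of the 25 members was -0.06, beside 0.01 over all genes, while the median of its absolute size was 0.70 beside 0.33. For 13 of the 15 members past 1.5-fold, the counting interval also lay on 1 side of no change.

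**Figure D1:**
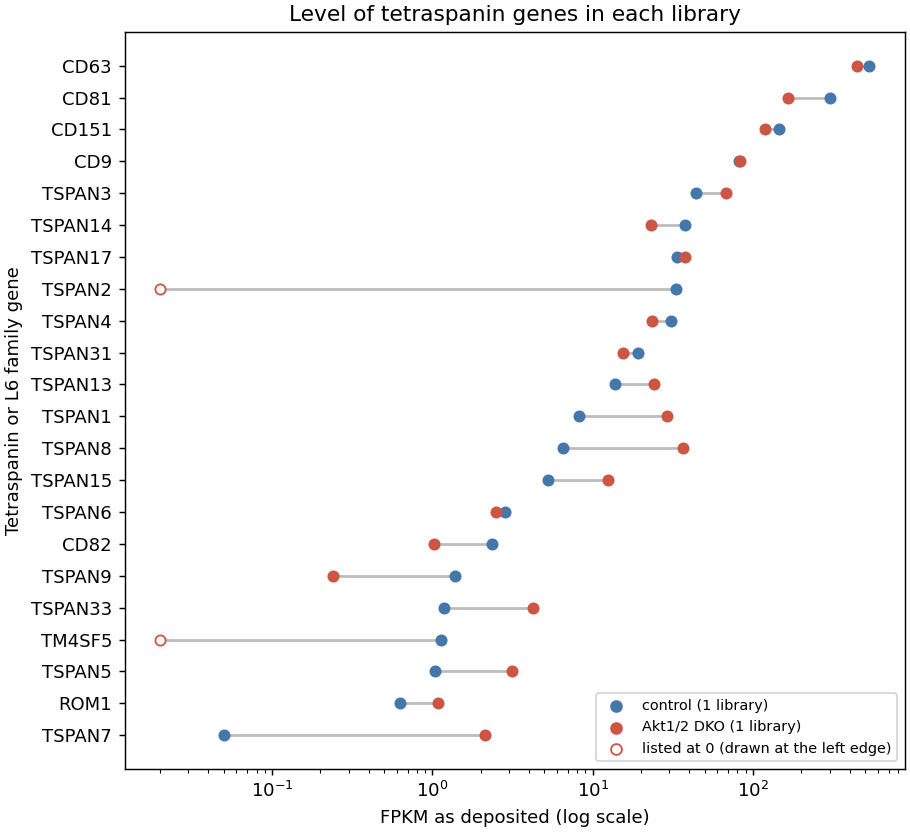
FPKM of the 22 members that reached an FPKM of 1 in either library, on a log axis, with control in blue and Akt1/2 DKO in red and 1 library each. CD63 and CD81 are the most abundant in both libraries, and TSPAN2 goes from 33.17 FPKM in the control to a listed 0.

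The bulk of tetraspanin RNA came from a few broadly expressed genes. CD63, CD81, CD151 and CD9 together held 81.1% of the summed FPKM of all members in the control against 74.0% in Akt1/2 DKO. The summed FPKM of the family was 1307.92 in the control and 1099.69 in the Akt1/2 DKO library. At the other end, TM4SF20, TSPAN16, TSPAN32 and UPK1B had no read in either library, where 3 reads, the limit that a count of 0 allows, are 0.301 CPM (reads scaled to the size of the library) in the control and 0.280 CPM in the Akt1/2 DKO library. In bulk RNA, fewer cells expressing a gene and less RNA per cell cannot be told apart.

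The 3 measured members farthest from no change, TSPAN2, TSPAN7 and TSPAN9, were TSPAN genes with no place in the functional subgroups. TSPAN2 (ENSG00000134198, chr1:115048011-115089500, minus strand of GRCh38 in GENCODE 29), a tetraspanin best known from oligodendrocytes, was the extreme: 494 reads in the control against 0 in Akt1/2 DKO. With Akt1/2 DKO set to the floor of 3 reads this is 183-fold lower, and the exact interval starts at 148-fold lower. Its surroundings on chromosome 1 were close to level, where the nearest measured genes were SIKE1 with 384 and 380 reads and VANGL1 with 591 and 514. The median log2 fold change of genes within 5 Mb of TSPAN2 was -0.05. TSPAN9, which has been studied in platelets, had 60 reads in the control and 7 in the Akt1/2 DKO library, 9.50-fold lower (95% interval 4.34 to 24.6). On the log2 scale TSPAN9 was at -3.25 by reads and -2.52 by FPKM.

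TSPAN8 and TSPAN1, both epithelial tetraspanins often described in carcinomas, stood higher in the Akt1/2 DKO library. TSPAN8 (ENSG00000127324, chr12:71125085-71441898, minus strand) had 79 reads in the control and 480 in Akt1/2 DKO, 5.48-fold higher (4.31 to 7.04), and reached 36.44 FPKM from 6.49. TSPAN1 (ENSG00000117472, chr1:46175073-46185958, plus strand) had 134 and 507 reads, 3.41-fold higher (2.82 to 4.16), and 8.26 and 29.08 FPKM. In the control library both lay below TSPAN2 in FPKM, and in the Akt1/2 DKO library both lay above TSPAN4 and TSPAN14. Of the measured genes on either side of TSPAN8 on chromosome 12, ZFC3H1 at 167574 bases had 493 and 640 reads and PTPRB at 487645 bases had 2401 and 91, and the median log2 fold change within 5 Mb was 0.09.

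The sequences before the start sites of these genes are shown because TSPAN2, TSPAN8 and TSPAN1 are 3 of the 4 members with at least 100 reads that lie farthest from no change, TSPAN33 being the other. They are from RefSeq (GRCh38.p14), read 5′ to 3′ on the gene's strand, and run up to the RefSeq start or the first annotated exon, whichever comes first. TSPAN2 covers chr1:115089504-115089753 on the minus strand, TSPAN8 chr12:71158100-71158249 on the minus strand, and TSPAN1 chr1:46174837-46175072 on the plus strand. Capitals mark CG dinucleotides.
TSPAN2: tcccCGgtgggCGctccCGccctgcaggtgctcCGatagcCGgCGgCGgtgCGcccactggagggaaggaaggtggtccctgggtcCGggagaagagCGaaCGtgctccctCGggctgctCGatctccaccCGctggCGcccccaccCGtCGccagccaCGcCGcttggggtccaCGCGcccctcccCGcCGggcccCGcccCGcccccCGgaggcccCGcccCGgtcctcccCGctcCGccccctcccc
TSPAN8: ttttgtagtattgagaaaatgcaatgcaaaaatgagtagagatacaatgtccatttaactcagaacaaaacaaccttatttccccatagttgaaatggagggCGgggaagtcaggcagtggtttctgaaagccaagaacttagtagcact
TSPAN1: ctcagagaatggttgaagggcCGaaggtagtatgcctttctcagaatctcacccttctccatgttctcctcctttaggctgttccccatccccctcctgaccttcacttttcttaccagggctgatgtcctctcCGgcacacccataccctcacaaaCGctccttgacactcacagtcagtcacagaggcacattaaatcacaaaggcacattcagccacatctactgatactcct

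The TSPAN2 stretch is rich in CG, with 30 CG dinucleotides in its 250 bases and a GC content of 79.2%. The 250 bases before the TSPAN8 start hold 1 CG dinucleotide (GC 40.8%) and those before TSPAN1 hold 4 (51.2%). The other higher members with a window held from 10 (ROM1) to 43 (TSPAN5). Of the other lower members, TM4SF1 held 4, and the windows of TSPAN14 held 2 to 45. A relation of CG number to fold change was not tested. The median over all 35116 such windows was 11, and over the 51 windows of the 31 members with one it was 10. A search of both strands for the FOXO core GTAAACA found it in 3 member windows (5.88%), 2 of TSPAN8 that share a site and 1 of TSPAN4, beside 2.98% of all windows. In the TSPAN8 window printed in part, it starts 53 bases before the RefSeq start of that window, 1 of 2 for this gene. It lies in the part not printed, past the point where an annotated exon begins. Both TSPAN8 windows lie inside the gene interval given above, which on the minus strand begins at 71441898. A match describes letters and says nothing of binding.

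TSPAN7 and TSPAN13 complete the higher members without a subgroup. TSPAN7, known from neurons and linked to X-linked intellectual disability, had 1 read in the control against 44 in Akt1/2 DKO, 39.7-fold higher with the wide interval of 6.76 to 1603. A protein-coding gene that shares 676 exon bases with it on the same strand, AF241726.2, had 0 reads in both libraries. TSPAN13 had 291 and 545 reads, 1.69-fold higher (1.46 to 1.95). Genes within 5 Mb of TSPAN13 had a median log2 fold change of 1.20 over 17 genes, the farthest from 0 around any of the 39 members, and their part in its value was not tested. The adjacent AGR2, a secretory protein chaperone, had 136 and 1277 reads. TSPAN11 had 14 and 18 reads and TSPAN18 had 5 and 6, both within 1.5-fold. TSPAN12 had 1 and 4 reads and TSPAN19 had 1 and 0.

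**Figure D2:**
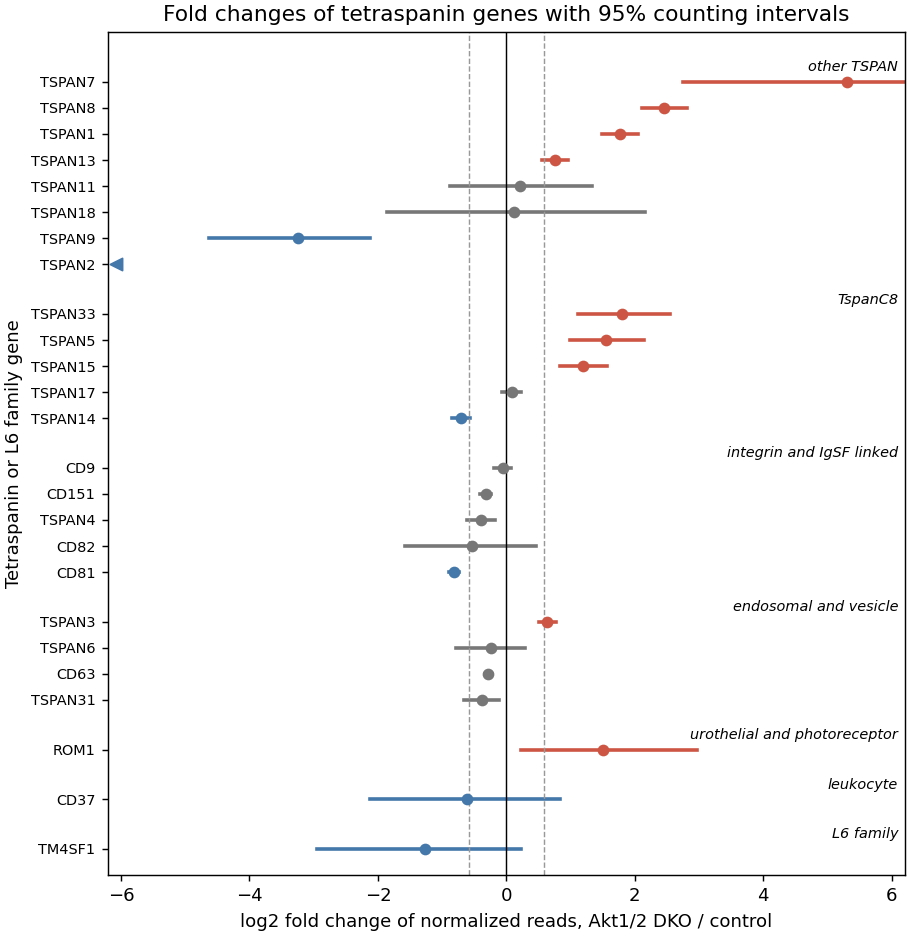
Log2 fold change (Akt1/2 DKO over control) of the 25 members with at least 10 reads in both libraries together, by subgroup, with 95% exact counting intervals and dashed lines at 1.5-fold. Red is higher, blue lower and grey within 1.5-fold. The triangle marks TSPAN2 beyond the axis, at -7.51 with Akt1/2 DKO set to the floor, and the interval of TSPAN7 runs off the axis.

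The TspanC8 members, the escorts of ADAM10, differed in both directions, with 3 of 5 measured higher and 1 lower (80.0% past 1.5-fold, beside 30.9% of all genes). TSPAN14 (ENSG00000108219, chr10:80454166-80533123, plus strand) was the most abundant of them in the control library and had 977 reads there and 665 in the Akt1/2 DKO library, 1.63-fold lower (95% interval 1.47 to 1.80). TSPAN17 lay within 1.5-fold, with 680 and 800 reads, a ratio of 1.06 (0.96 to 1.18). The 3 less abundant measured members were higher in Akt1/2 DKO.

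TSPAN15, which directs ADAM10 to N-cadherin, had 90 and 229 reads, 2.30-fold higher (1.79 to 2.96). TSPAN5 had 35 and 114 reads, 2.94-fold higher (2.00 to 4.42). TSPAN33 had 22 and 85 reads, 3.48-fold higher (2.16 to 5.85). TSPAN10 had 0 and 5 reads, too few to count.

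The total of the subgroup was nearly level while the shares of its genes differed. Summed FPKM was 78.61 in the control and 80.76 in the Akt1/2 DKO library. TSPAN14 held 48.0% of it in the control and 28.6% in the Akt1/2 DKO library, so that TSPAN17, with 42.5% and 46.4%, was the leading TspanC8 gene there. TSPAN5, TSPAN10, TSPAN15 and TSPAN33 together held 9.54% and 24.95%.

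**Figure D3:**
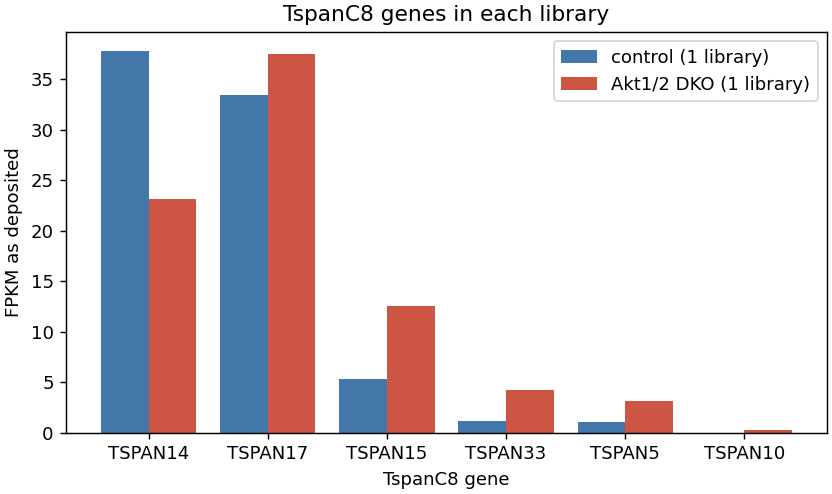
FPKM of the 6 TspanC8 genes, control in blue and Akt1/2 DKO in red, 1 library each and the axis from 0. TSPAN14 stands at 37.74 and 23.10 FPKM, while TSPAN15, TSPAN33 and TSPAN5 are taller in the Akt1/2 DKO library.

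The partners of the TspanC8 members were counted in the same way. Their lists were chosen with earlier results of these data known, so the shares describe the listed genes only. Of 3 proteases that tetraspanins bind, ADAM10, ADAM17 and MMP14, 2 were lower and none higher by reads. That share, 66.7%, stands beside 30.9% of all genes. ADAM10 itself had 899 and 607 reads, 1.64-fold lower (1.48 to 1.82), although on the FPKM scale it was 24.05 and 20.83, within 1.5-fold. Of 7 ADAM10 substrates, 4 were higher, 1 was lower and 2 lay within 1.5-fold, a share of 71.4% past 1.5-fold beside 30.9% of all genes. NOTCH3, a Notch receptor, had 35 and 821 reads, 21.2-fold higher (15.1 to 30.6), and CD44, the hyaluronan receptor, had 21 and 542, 23.3-fold higher (15.1 to 37.9), at log2 4.54 by reads and 3.63 by FPKM. APP, the amyloid precursor, had 249 and 1749 reads, 6.34-fold higher (5.54 to 7.26). Epithelial cadherin, CDH1, was lower, with 5349 and 3343 reads (1.77-fold, 1.70 to 1.85). CDH2, the N-cadherin gene, had 0 and 46 reads and falls outside the rule for named genes. With the control set to the floor of 3 reads CDH2 was 13.8-fold higher, with an exact interval that starts at 10.8-fold. It was named after its values were seen, because TSPAN15 is known to act on it. NOTCH1 and NOTCH2 lay within 1.5-fold.

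Of the 5 members tied to integrins and to immunoglobulin superfamily proteins 1 was lower and 4 lay within 1.5-fold, 20.0% beside 30.9% of all genes. CD81 (ENSG00000110651, chr11:2376177-2397419, plus strand), an entry factor for hepatitis C virus, had 3335 reads in the control and 2106 in the Akt1/2 DKO library, 1.76-fold lower (1.66 to 1.85). Its place in the ranking of all genes by FPKM went from 229 to 455. CD151 had 2159 and 1911 reads, 1.25-fold lower (1.18 to 1.33), and TSPAN4, which is known from migrasomes and lies 2977 bases from CD151 on chromosome 11, had 367 and 309, 1.32-fold lower (1.13 to 1.54). CD9, with 893 and 951 reads, had a ratio of 0.96 (0.88 to 1.05). CD82, known as the metastasis suppressor KAI1, was scarce in both libraries, with 21 and 16 reads.

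The immunoglobulin superfamily partners went both ways. IGSF8, which binds CD9 and CD81, had 364 and 230 reads, 1.75-fold lower (1.48 to 2.08), and PTGFRN, another partner of both, had 840 and 619, 1.504-fold lower (1.35 to 1.67), a call that is lost under total read and upper-quartile scaling and by FPKM. All 4 genes of that list passed 1.5-fold, 1 higher and 3 lower, beside 30.9% of all genes. For CD101, 1 of the lower genes with 15 and 9 reads, the interval (log2 -2.26 to 0.40) covers no change. Among 6 integrin genes 2 were higher and none lower, 33.3% beside 30.9% of all genes, and the call of ITGA6 (20 and 52 reads) is lost by FPKM, at 0.74 and 0.89. ITGB1, the beta subunit that CD151 partners share, had 3039 and 2704 reads and lay within 1.5-fold, and ITGA2, the collagen-binding alpha subunit, had 68 and 270, 3.58-fold higher (2.74 to 4.74).

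Of the 4 endosomal and vesicle members 1 was higher and 3 lay within 1.5-fold, beside 30.9% of all genes past 1.5-fold. CD63 (ENSG00000135404, chr12:55725323-55729707, minus strand), the most abundant member, had 5443 and 4965 reads, 1.22-fold lower (1.17 to 1.26), and 40.5% and 40.7% of the family's FPKM. TSPAN3 was higher, with 747 and 1286 reads, 1.55-fold (1.42 to 1.70). TSPAN31 had 237 and 201 reads, 1.31-fold lower (1.08 to 1.59). It shares 1369 exon bases on opposite strands with CDK4, which had 3718 and 3785 reads, and whether the counting used strand is not given in the sources used here. TSPAN6, which lies on the X chromosome, had 63 and 59 reads, 1.18-fold lower (0.82 to 1.72).

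Genes of exosome formation, a process in which CD63 takes part, were past 1.5-fold about as often as all genes, with none of 7 higher and 2 lower (28.6% beside 30.9%). PDCD6IP (ALIX) had 2748 and 1789 reads, 1.70-fold lower (1.60 to 1.81), but on the FPKM scale 73.81 and 57.46, within 1.5-fold. It lies on chromosome 3, where the median log2 fold change was -0.53 over 666 genes, and the part of this in its value was not tested. SDC4, a syndecan, had 331 and 218 reads, 1.68-fold lower (1.42 to 2.01).

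The members named for leukocytes, urothelium and photoreceptors had at most 22 reads in either library. CD37, a B-cell tetraspanin, had 11 and 8 reads and CD53 had 2 and 0. CD37 passed 1.5-fold as lower, but its interval (log2 -2.13 to 0.84) covers no change, and its exons overlap those of TEAD2 on the opposite strand. ROM1, a photoreceptor disc protein, had 7 and 22 reads, 2.83-fold higher (1.17 to 7.86). It shares 618 exon bases with EML3 on the opposite strand, which had 188 and 176 reads. PRPH2, the partner of ROM1, had 5 and 2 reads and UPK1A, a urothelial plaque protein, had 1 and 2.

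The L6 members were scarce and lower in sum, with 33 reads in the control against 8 in Akt1/2 DKO over 6 genes. TM4SF1, the best known of them as an antigen of carcinoma cells, had 13 and 6 reads, with a log2 interval of -2.95 to 0.23 that covers no change. TM4SF5 had 8 and 0 reads, TM4SF19 had 5 and 1, TM4SF18 had 4 and 1, and TM4SF4 had 3 and 0. TM4SF1, TM4SF4, TM4SF18 and TM4SF19 lie on chromosome 3, where the median log2 fold change was -0.53 over 666 genes. Within 5 Mb of TM4SF1 it was -0.55 over 21 genes, and its part in the TM4SF values was not tested.

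TM4SF1 is shown by its primers, since the study designed a pair for it and the reads for it are few. The forward primer lies in coding exon 1 at chr3:149377501-149377520 and the reverse primer in coding exon 2 at chr3:149375693-149375712 (GRCh38, GENCODE 29), on a product of 227 bases.
forward: atcggacattctctggtggg
reverse: ccacagttttcatggccaca

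**Figure D4:**
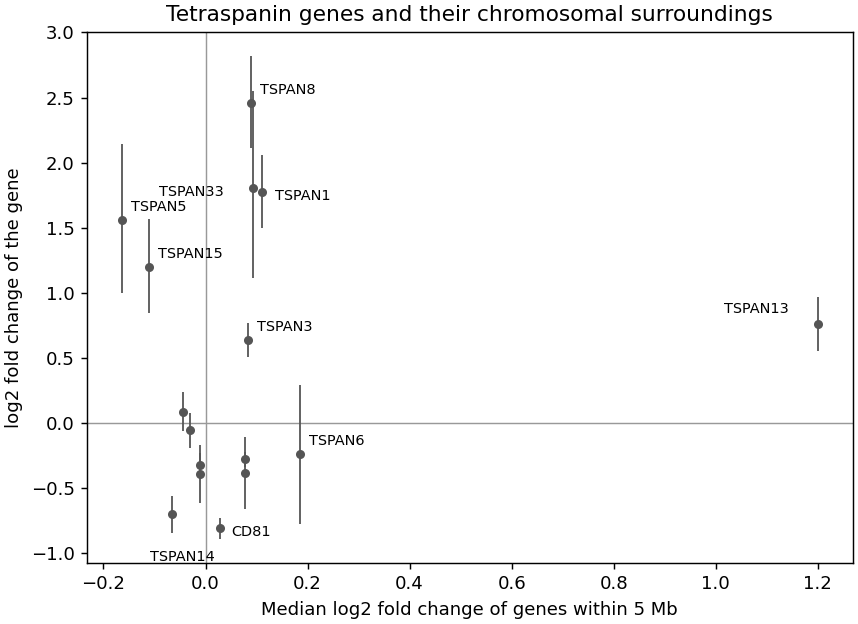
Log2 fold change of 16 members with at least 100 reads, with 95% counting intervals, against the median log2 fold change of genes within 5 Mb. The surroundings of TSPAN13 are farthest from 0, at 1.20, those of the others lie between -0.16 and 0.18, and TSPAN2 lies below the plotted range with surroundings of -0.05.

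Of 6 further partners in the tetraspanin web 3 were higher and 1 lower, 66.7% past 1.5-fold beside 30.9% of all genes. EGFR, the epidermal growth factor receptor, which CD82 and CD9 bind, had 7912 reads in the control and 225 in the Akt1/2 DKO library, 39.0-fold lower (34.1 to 44.7). HBEGF, its ligand and a partner of CD9, had 32 and 81 reads, 2.28-fold higher (1.499 to 3.55). EPCAM, a partner of TSPAN8 and CD9, had 206 and 843 reads, 3.69-fold higher (3.17 to 4.32), while CLDN7, which joins the same complex, had 1892 and 2210 and lay within 1.5-fold. The other higher gene of the 6, CLDN1, had 0 and 62 reads. From the protease list counted above, MMP14, which CD9, CD81, CD151 and TSPAN12 bind, had 140 and 10 reads, 15.5-fold lower (8.19 to 33.1). Its log2 fold change was -3.96 by reads and -3.18 by FPKM.

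The receptor complex that TSPAN12 serves in Norrin signalling was measured without its ligand. FZD4 had 30 and 238 reads, 7.16-fold higher (4.88 to 10.8), LRP5 had 870 and 825, and the ligand gene NDP had 0 and 1. Among 4 palmitoyltransferases, the enzymes that attach the fatty acid on which the web depends, ZDHHC2 had 29 and 317 reads, 9.86-fold higher (6.73 to 15.0). ZDHHC3, which like PDCD6IP lies on chromosome 3, had 683 and 461, 1.64-fold lower (1.46 to 1.85). ZDHHC4, the most abundant of these enzymes by FPKM, had 636 and 542. Of all 43 partner genes 39 were measured, of which 12 were higher, 10 lower and 17 within 1.5-fold, 56.4% beside the 30.9% of all genes. The partner lists were chosen with earlier results of these data known, so this share describes the listed genes only. The 3 uroplakin partners had too few reads to count.

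**Figure D5:**
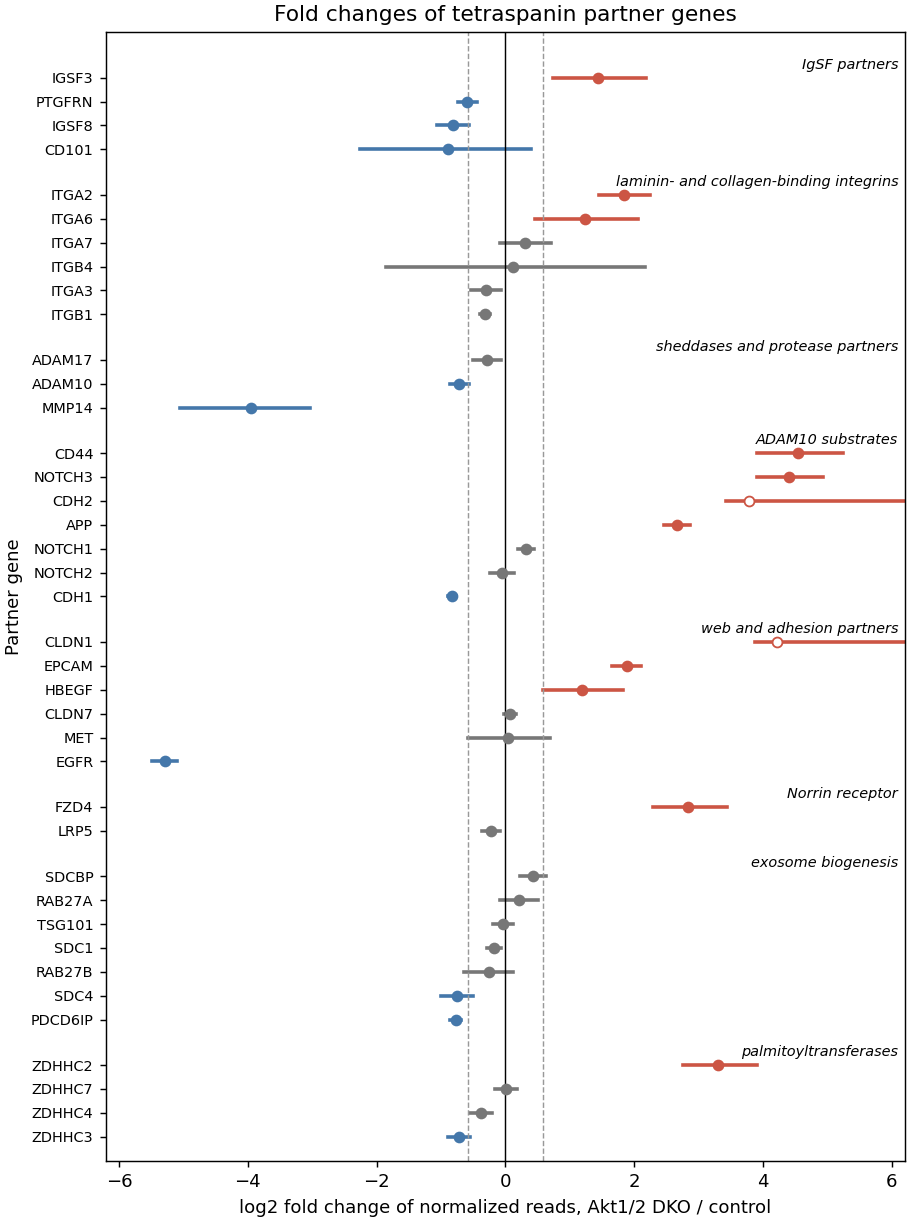
Log2 fold change of the 39 measured partner genes by list, with 95% exact counting intervals and dashed lines at 1.5-fold. Open circles (CDH2 and CLDN1) are bounds, since the control library had 0 reads, and EGFR is the lowest and CD44 the highest of the others.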

How the data were processed

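Total RNA from 1 control and 1 Akt1/2 DKO culture of CWR22rv1 cells was sequenced on an Illumina platform. The authors deposited estimated counts per gene, not normalized, and FPKM, computed by the authors per transcript length and library size. The submitters' processing notes name fastp 0.20.0, TopHat, Cufflinks, edgeR and the build GRCh38.p10, and the counting tool and annotation are not given in the sources used here. The deposited tables of fold changes, p-values and ontology classes, and of library similarity, were not used.

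Estimated counts were rounded to whole reads. TMM factors (edgeR 4.0.16, R 4.3.3) over genes with at least 10 reads in both libraries together set the library size ratio, Akt1/2 DKO over control, at 1.11. Intervals are exact (Clopper-Pearson, scipy 1.17.1, Python 3.11.15) at 95% given the sum of both libraries, and they cover counting error only. A library with 0 reads opposite more than 3 was set to the floor of 3 reads. The plan set libraries under 3 reads to 3, and for 1 to 3 reads the ratio itself is given here instead. No test, p-value or standard error is given, since each condition has 1 library. Steps were tested on simulated counts. Members, subgroups, partner and marker lists were chosen with earlier results of these data known. Some results are not reported here, and the marker lists are given without them.

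All members were accounted for, with fold and interval given for those with at least 100 reads, and partner genes were named where they had at least 100 reads and passed 1.5-fold. The most abundant gene of a list by FPKM was also named. Intervals of members with fewer reads were added after their values were seen. So were CD101, CDH2, CLDN1, NOTCH1, NOTCH2, NDP, ITGA6, ITGA7, ITGB4, MET, CD14, the fibroblast genes and the CG counts of further called members. Positions and overlaps are from GENCODE 29 (19571 of 19607 genes matched, members 39 of 39). Promoter windows were matched by symbol. The alternatives were total read, upper-quartile and DESeq2 1.42.0 scaling, the authors' FPKM, other read filters, thresholds of 2-fold or on the interval, and a prior count of 1. Leaving out chromosome 3 or the L6 family was added after seeing the data.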

Additional observations from a re-analysis of the deposited data

How the results depend on the processing

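The count of 15 members past 1.5-fold (9 higher, 6 lower) ranged from 14 to 16 across total read, upper-quartile and DESeq2 scaling and FPKM. It was 9 (7 higher, 2 lower) when each library had to hold at least 10 reads. This removes TSPAN2, which is absent from 1 library. It also removes TSPAN7, TSPAN9, ROM1, CD37 and TM4SF1, which have reads in both libraries but under 10 in 1. The count was also 9 (6 higher, 3 lower) when the whole interval had to lie beyond 1.5-fold. The median log2 fold change of -0.06 was -0.24 without a read filter, and it was slightly above 0 with FPKM, with at least 10 reads in each library, and without chromosome 3 or the L6 family. The count of 22 partner genes (12 higher, 10 lower) was 14 (12 higher, 2 lower) at 2-fold and 14 (10 higher, 4 lower) with the interval beyond 1.5-fold. Without chromosome 3 it was 19 (11 higher, 8 lower). AKT1 was -2.31 by reads and -2.66 by FPKM. CD37 and the partner gene PTGFRN crossed the 1.5-fold line under total read and upper-quartile scaling and FPKM, and CD82, TSPAN18, ADAM10, PDCD6IP, ITGA6, ITGB4 and MET under FPKM, and the cause was not tested. CD9 changed sign with FPKM, at 0.01. Single values were followed for the measured members, AKT1, AKT2 and the partner genes with at least 100 reads that passed 1.5-fold. Total read, upper-quartile and DESeq2 scaling and a prior count of 1 left each of these within its 95% interval. FPKM left 38 of 43 there, with ADAM10, PDCD6IP, CD44, EGFR and AKT1 outside. Among partner genes not in this set, ITGA6, ITGA7 and MET also had FPKM ratios outside their intervals. Leaving out a replicate was not possible with 1 library per condition. No paired analysis was possible because the 2 libraries hold no replicates to pair. Depth limits the 14 members under 10 reads, for which no ratio is read.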

Other observations

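Reads and FPKM of CD82 diverged between the libraries. It had 21 and 16 reads but 2.37 and 1.03 FPKM, so that the log2 fold change was -0.54 by reads and -1.20 by FPKM. Reads per FPKM, Akt1/2 DKO over control and relative to the median gene, was 1.63 for CD82, outside the range of 0.875 to 1.18 that held the central 90% of 10569 genes. ROM1 and TSPAN18 also differed between the scales, at 2.83-fold by reads and 1.73-fold by FPKM and, on the log2 scale, at 0.11 and 1.58, with at most 29 reads each. The cause was not tested.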
